A study of Mus musculus with 16 samples.

Results

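The data describe 45 genes of the core autophagy machinery and its cargo receptors in hematopoietic progenitors of mice with lowered PU.1. The 45 were picked by name from 54347 genes in the deposited table, as known components of each step of autophagosome formation, a rule that uses names and known roles and no measured value, though it was drawn up with earlier results of these data known. RNA was sequenced in bulk from 2 populations sorted from bone marrow. LSKs (lineage-negative, Sca-1+ c-Kit+ cells) hold the stem cells and multipotent progenitors, and GMPs (lineage-negative, Sca-1- c-Kit+ Cd16/32+ cells) are committed to granulocytes and monocytes. The mice labelled URE lack the upstream regulatory element, an enhancer of the PU.1 gene *Spi1*, in the germline and hence in all cells, and had not developed leukemia. WT mice were their littermates on a C57BL/6 background, and both were 8 to 12 weeks old. Each of the 4 groups (WT LSK, URE LSK, WT GMP and URE GMP) holds 4 mice, 1 library a mouse, and the labels do not say whether the LSKs and GMPs of a replicate number came from the same animal.

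Macroautophagy encloses cytoplasm in a double membrane that fuses with lysosomes, and stem cells of the blood depend on it to clear mitochondria and survive starvation. A kinase complex around ULK1 starts the process, a lipid kinase complex around Beclin 1 and VPS34 marks the forming membrane with PI3P, and ATG9 and ATG2 proteins deliver lipid to it. A ubiquitin-like cascade then attaches LC3 and GABARAP proteins, the ATG8 family, to the membrane. Receptors such as p62 (*Sqstm1*) and optineurin (*Optn*) bind both ATG8 proteins and the cargo, and are themselves degraded with it. Transcript levels therefore describe the supply of these parts, and flux through the pathway was not measured by these RNA libraries.

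Libraries held 20028302 to 29128858 estimated counts, and all 45 genes passed the filter on low counts in every comparison. *Spi1* was checked first and was lower in URE mice, with log2 fold changes of -5.39 in LSKs and -2.73 in GMPs (adjusted p = 0.000266 and 0.00095, edgeR). LSK markers (9 genes, among them *Kit*, *Ly6a* and *Hlf*) summed to 3224 to 5245 CPM (counts scaled to library size) in LSKs and 1051 to 2618 in GMPs, and GMP markers (9 genes, among them *Mpo* and *Elane*) to 701 to 1634 and 55885 to 160797. In every comparison below a gene was called when edgeR's quasi-likelihood test gave a Benjamini-Hochberg adjusted p under 0.05 over all genes tested and the fold change exceeded 1.5, except that the interaction was called on adjusted p alone. Errors of log2 fold changes are standard errors, errors of levels are SDs with n = 4 mice, and values for single mice are listed from replicate 1 to replicate 4. Same-numbered libraries deviated together, so a second fit held the replicate number as a block, and its values are given where they change a call.

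Levels of different genes were compared as CPM per kilobase of exonic length. This length merges the exons of all annotated transcripts of a gene and can exceed that of the transcript expressed. Ranks between genes rest on it. The cargo receptor *Tax1bp1* had the highest mean over the 16 libraries, 92.8, a rank set by 3 of the 4 groups, since in WT LSKs it stood at 63.1, below *Gabarapl1* (71.4), *Sqstm1* (66.1) and *Map1lc3b* (65.1). It was followed over all libraries by *Atg101* (65.8), which holds *Atg13* in the ULK1 complex, by the ATG8 gene *Map1lc3b* (63.9), by *Sqstm1* (62.7) and by *Gabarap* (59.4). These ranks pool groups that differ, as *Atg101* was at 79.5 and 82.5 in WT and URE GMPs and at 54.0 and 47.2 in WT and URE LSKs, where 5 of the other genes stood higher. At the other end stood the ATG8 gene *Map1lc3a* at 0.905, the lipid transfer gene *Atg2b* at 1.20, the Beclin 1 kinase *Dapk1* at 1.30, *Uvrag* at 1.55 and the starting kinase *Ulk1* at 1.83. Within the ULK1 complex itself, *Atg101* was at 54.0 ± 9.11 in WT LSKs, *Atg13* at 15.7 ± 4.52, the scaffold *Rb1cc1* (FIP200) at 3.30 ± 1.08, *Ulk2* at 2.81 ± 1.05 and *Ulk1* at 2.13 ± 0.313.

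**Figure D1:**
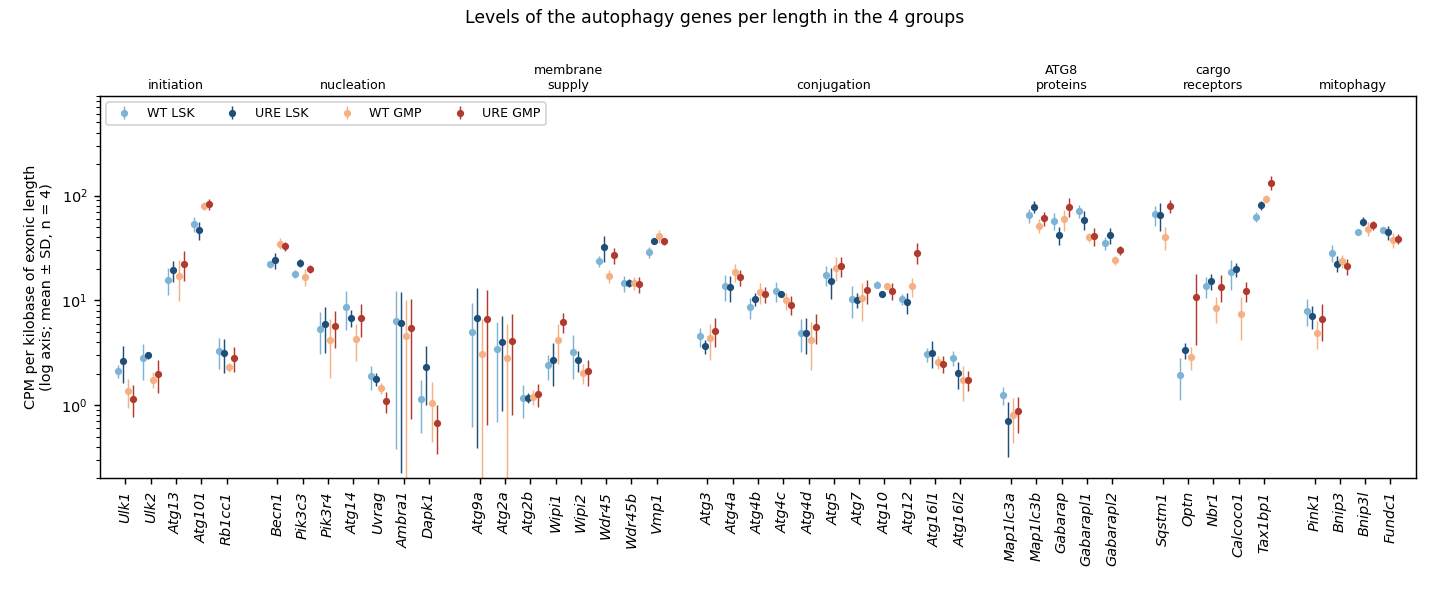
Level of each of the 45 genes, in CPM per kilobase of exonic length on a log axis, by step of autophagy (x axis). Points are means and bars are SDs of 4 mice for WT LSK, URE LSK, WT GMP and URE GMP, and bars that reach below the axis are cut off. *Tax1bp1* and *Optn* stand highest in URE GMPs, and the bars of *Ambra1*, *Atg9a* and *Atg2a* span the widest range.

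*Sqstm1* and *Optn* are cargo receptors called between genotypes in GMPs, and *Tax1bp1*, another receptor, did not overlap there, so the promoters of these 3 genes are shown for reading beside their values. They are 300 bases each, from 250 before to 50 after the start of transcription, 5′ to 3′ on the gene's strand, from RefSeq on GRCm38.p6. The *Sqstm1* window lies at chr11:50210771-50211070 on the minus strand, that of *Optn* at chr2:5064068-5064367 on the minus strand and that of *Tax1bp1* at chr6:52713479-52713778 on the plus strand. Capitals mark matches on either strand to the letters CACGTG (the E-box core bound by TFEB and TFE3), TGACNNNGC (the antioxidant response core bound by NRF2), GAGGAA (the core of PU.1 sites) and TGTGGT (the core of RUNX sites).
Sqstm1: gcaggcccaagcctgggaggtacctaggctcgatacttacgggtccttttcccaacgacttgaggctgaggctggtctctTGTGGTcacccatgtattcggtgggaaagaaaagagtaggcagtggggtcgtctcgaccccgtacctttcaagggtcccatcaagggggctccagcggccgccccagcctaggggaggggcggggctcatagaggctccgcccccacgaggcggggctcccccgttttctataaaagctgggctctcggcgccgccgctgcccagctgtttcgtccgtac
Optn: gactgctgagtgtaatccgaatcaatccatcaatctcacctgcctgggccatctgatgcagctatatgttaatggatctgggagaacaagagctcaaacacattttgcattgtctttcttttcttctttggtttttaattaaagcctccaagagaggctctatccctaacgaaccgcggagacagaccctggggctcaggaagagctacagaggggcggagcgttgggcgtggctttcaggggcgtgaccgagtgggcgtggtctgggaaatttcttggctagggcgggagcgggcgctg
Tax1bp1: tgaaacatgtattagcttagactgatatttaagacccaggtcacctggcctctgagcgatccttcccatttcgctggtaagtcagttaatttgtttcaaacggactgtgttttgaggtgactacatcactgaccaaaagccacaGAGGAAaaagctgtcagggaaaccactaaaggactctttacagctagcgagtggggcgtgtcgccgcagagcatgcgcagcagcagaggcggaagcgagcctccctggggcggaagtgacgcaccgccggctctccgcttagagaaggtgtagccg

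The *Sqstm1* window held 1 match, to TGTGGT, the *Tax1bp1* window 1 match, to GAGGAA, and the *Optn* window none of these letters. A second start of *Tax1bp1*, whose window is not printed, had 2 matches. RefSeq had entries for 37 of the 45 genes, 43 promoters in all, as some genes have more than 1 start. GAGGAA occurred in 11 of these 43 (25.6%) against 28.3% of 32851 mouse promoters, and TGTGGT in 9 (20.9%) against 16.8%. CACGTG was found in 5 (11.6% against 7.15%), those of *Atg14*, *Atg3*, *Atg5*, *Atg7* and *Bnip3*, and TGACNNNGC in 7 (16.3% against 12.4%). Matches of different motifs were allowed to share bases, which could not occur in the windows printed as each holds at most 1. A match is a description of the window, not a binding site.

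In LSKs, the comparison of URE with WT asks whether PU.1 loss changes the autophagy parts list in the stem and early progenitor compartment. None of the 45 genes was called higher and none lower by edgeR, where 2.38% of the 15154 genes tested were called higher and 3.76% lower. The replicate block called none of them either, against 3.83% and 5.62% of all genes. DESeq2 called none, and 3 genes had an unadjusted p under 0.05, beside 2325 of the 15154 genes tested, a smaller share than over all genes. These were *Pik3c3*, the catalytic subunit VPS34, at 0.33 on the log2 scale (adjusted p = 0.309), *Optn* at 0.74 (adjusted p = 0.300) and *Gabarap* at -0.49 (adjusted p = 0.263). The median log2 fold change of the 45 was -0.0053, beside 0.00093 for all genes tested, with 21 positive and 24 negative values. Libraries of the genotypes did not overlap for *Pik3c3*, *Vmp1*, *Tax1bp1* and *Bnip3l* (higher in URE) and for *Atg10* (lower), against 5.66% and 6.9% of all genes.

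By step, the starting complex ranged from -0.23 (*Atg101*) to 0.29 (*Ulk1*) and the nucleation genes from -0.38 (*Atg14*) to 1.004 (*Dapk1*). The *Dapk1* value was the highest of the 45, with an SE of 0.54, overlapping libraries and an adjusted p of 0.459 (edgeR). The lowest was the ATG8 gene *Map1lc3a* at -0.86 ± 0.47, also with overlap (adjusted p = 0.469, edgeR). Of the 11 conjugation genes, 9 had a negative value, from -0.52 for *Atg16l2* upward, and the 2 positive ones were *Atg4b* at 0.23 and *Atg16l1* at 0.019. The 4 mitophagy genes, which put mitochondria forward for removal, lay between -0.37 (*Bnip3*) and 0.31 (*Bnip3l*). A value that missed the threshold does not show that the genotypes were alike. The 95% interval of the fold change stayed below a 1.5-fold rise for 22 of the 45 genes, and within 1.5-fold either way for 6.

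*Gabarap* had the lowest adjusted p of the 3 in LSKs, while only *Optn* among them exceeded 1.5-fold. *Gabarap* was at 84.7, 133, 101 and 105 CPM in WT LSKs and at 68.1, 98.7, 76.5 and 64.9 CPM in URE LSKs. Ranges overlapped, but each URE library lay below the WT library of its number, and with the replicate block the adjusted p was 0.0398 at a log2 fold change of -0.49, a fold change under the 1.5 needed for a call. That fit draws on the same pairs. *Optn* in LSKs was at 5.03, 5.03, 7.73 and 11.6 CPM in WT and 11.6, 11.9, 15.8 and 10.96 CPM in URE mice. The WT library of replicate 4 reached into the URE range, and the other 3 WT libraries lay below it.

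**Figure D2:**
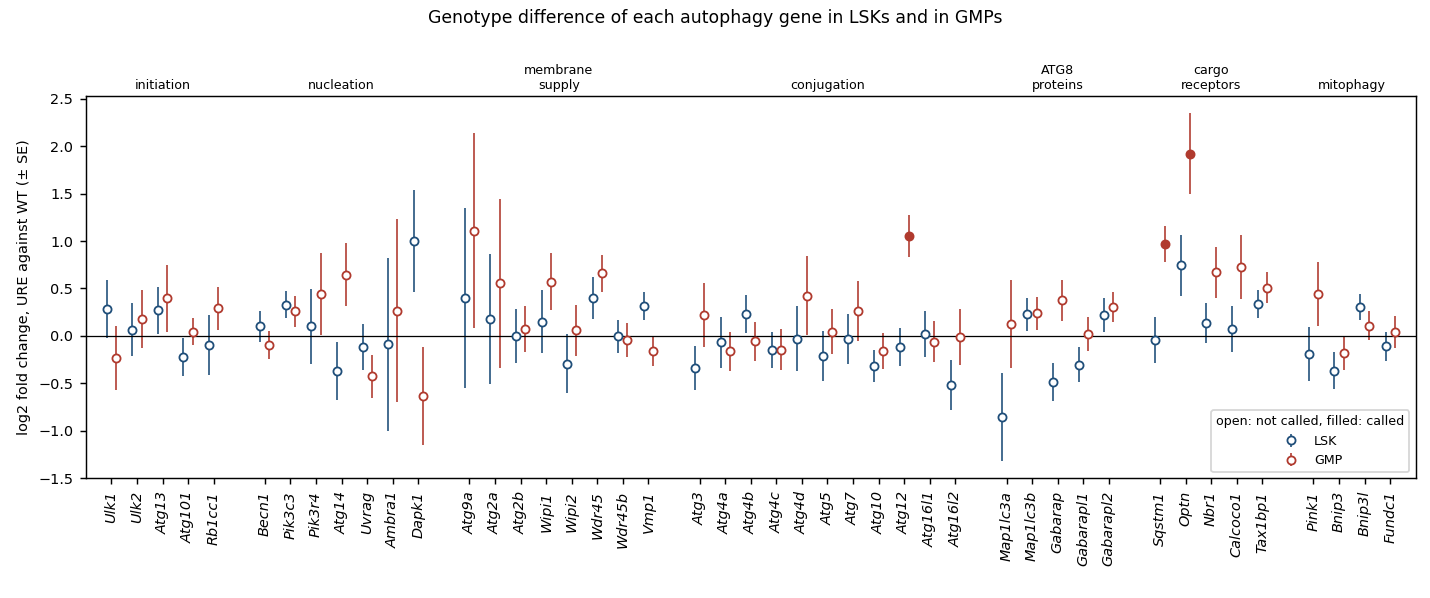
Log2 fold change of URE against WT for each of the 45 genes, in LSKs and in GMPs (y axis), by step of autophagy (x axis), with bars for the SE over 4 mice a group. Filled points were called. All LSK points are open, and the 3 filled GMP points are *Atg12*, *Sqstm1* and *Optn*.

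In GMPs, where the same question is put to committed progenitors, 3 of the 45 genes were called higher in URE mice and none lower, against 4.67% and 3.63% of the 13829 genes tested. Cargo receptors among them were *Sqstm1* and *Optn*, and the remaining one was *Atg12*, the ubiquitin-like protein that is joined to ATG5 to form the conjugation enzyme. The 6 genes with an unadjusted p under 0.05, beside 2808 of the 13829 genes tested, were higher in URE mice, and DESeq2 called 4 higher, with *Wdr45* added, and none lower. The median log2 fold change of the 45 was 0.22, beside 0.0052 for all genes tested, with 32 positive and 13 negative values. With the replicate block, 8 genes were called higher and none lower, against 9.52% and 6.82% of all genes.

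*Sqstm1* encodes p62, which gathers ubiquitinated proteins. It was at 137, 181, 107 and 115 CPM in WT GMPs and at 226, 300.2, 241 and 294 CPM in URE GMPs. Every URE library exceeded every WT library, a 1.95-fold difference (log2 fold change 0.97 ± 0.19, adjusted p = 0.0139, edgeR). The call was kept when any of the 8 libraries was left out, at log2 fold changes from 0.87 to 1.13. Exons of *Sqstm1* (chr11:50199366-50210827, GRCm38, minus strand) share 580 of 3356 bases with *Mrnip* on the other strand, and the libraries do not keep strand.

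*Optn* encodes optineurin, which brings damaged mitochondria and bacteria to the autophagosome. It was at 13.2, 10.8, 7.19 and 11.9 CPM in WT GMPs and at 32.9, 22.0, 79.6 and 27.8 CPM in URE GMPs. Its exons share 73 of 3753 bases with *4930551O13Rik* on the other strand. The genotypes did not overlap, and the URE library of replicate 3 stood far above the other 3 (log2 fold change 1.92 ± 0.43, adjusted p = 0.0235, edgeR). Without that library the log2 fold change was 1.32 (adjusted p = 0.0170), which is over 1.5 times smaller as a fold. The call was lost without the WT library of replicate 2, 3 or 4 (adjusted p = 0.0700, 0.0569 and 0.0649), with log2 fold changes of 1.91, 1.77 and 1.96.

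*Atg12* was at 81.6, 121, 127 and 89.5 CPM in WT GMPs and at 213, 246, 153 and 267 CPM in URE GMPs. The lowest URE library, replicate 3, still lay above the highest WT library (log2 fold change 1.05 ± 0.22, adjusted p = 0.0181, edgeR). The adjusted p was 0.0508, 0.0612 and 0.0624 without URE replicate 2, URE replicate 4 and WT replicate 4, with log2 fold changes between 0.95 and 0.98. Its partners in the conjugate were not called, with *Atg5* at 0.046 (adjusted p = 0.949) and *Atg16l1*, which places the conjugate on the membrane, at -0.062 (adjusted p = 0.924). Neither was *Atg7*, the activating enzyme of the cascade (0.26, adjusted p = 0.743), or its E2-like enzymes *Atg10* (-0.16) and *Atg3* (0.22). The 4 *Atg4* proteases lay between -0.16 (*Atg4a*) and 0.42 (*Atg4d*).

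The 3 cargo receptors that missed a call in GMPs also had positive values. All 5 genes of this step did, from 0.51 to 1.92 with a median of 0.73, beside 6974 of the 13829 genes tested. The mitophagy genes *Bnip3*, *Bnip3l* and *Fundc1*, kept as a separate step, were at -0.18, 0.10 and 0.039. *Tax1bp1*, which binds ubiquitinated aggregates, was at 1006, 831, 899.6 and 989 CPM in WT and 1628, 1196, 1245 and 1264 CPM in URE GMPs, without overlap (log2 fold change 0.51 ± 0.16, adjusted p = 0.0930). *Nbr1*, a partner of p62, was at 77.3, 60.1, 38.9 and 54.9 CPM in WT and 99.4, 96.0, 55.5 and 119.6 CPM in URE GMPs, where URE replicate 3 fell inside the WT range (log2 fold change 0.67 ± 0.27, adjusted p = 0.195). *Calcoco1*, a receptor for endoplasmic reticulum and Golgi, was at 62.7, 37.1, 19.1 and 52.1 CPM in WT and 88.2, 52.4, 64.3 and 77.9 CPM in URE GMPs, with overlapping ranges (log2 fold change 0.73 ± 0.34, adjusted p = 0.275). In each of these genes all 4 URE libraries lay above the WT library of their number. The fit with the block draws on these same pairs and is not separate from them. The replicate block called *Nbr1* (adjusted p = 0.0277) and *Calcoco1* (adjusted p = 0.0443), and passed *Tax1bp1* on p (0.0310) but not on fold (1.42-fold without the block).

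**Figure D3:**
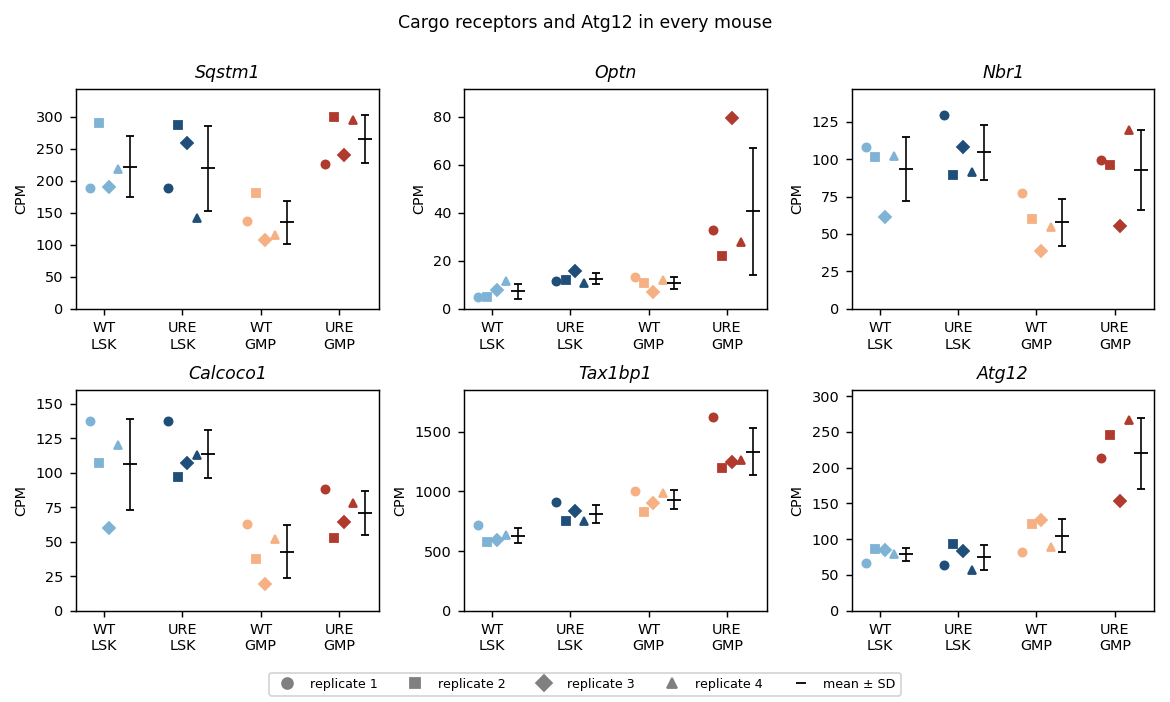
CPM of the 5 cargo receptors and *Atg12* (y axis) in every mouse of the 4 groups (x axis). Symbols give the replicate number and black bars the mean ± SD. In GMPs *Sqstm1*, *Optn*, *Tax1bp1* and *Atg12* of URE mice lie above all WT mice, and *Calcoco1* is lower in GMPs than in LSKs of both genotypes on average.

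Of the membrane supply genes, *Atg9a*, *Wipi1* and *Wdr45* were called higher in URE GMPs with the block but not in the main edgeR fit. Without the block, DESeq2 (log2 fold change 0.66, adjusted p = 0.0292) and a joint edgeR fit of all libraries (0.67, adjusted p = 0.0438) also called *Wdr45*. *Wdr45*, a PI3P-binding protein, was at 47.9, 58.3, 66.3 and 52.4 CPM in WT and 76.2, 87.0, 112 and 81.9 CPM in URE GMPs without overlap (log2 fold change 0.66 ± 0.19, adjusted p = 0.0712, and 0.0101 with the block). *Wipi1*, of the same family, was at 19.7, 13.3, 11.9 and 28.6 CPM in WT and 30.7, 26.8, 19.4 and 32.5 CPM in URE GMPs, which overlapped (log2 fold change 0.57 ± 0.30, adjusted p = 0.342, and 0.0430 with the block). *Atg9a*, a membrane protein of the vesicles that seed the autophagosome, was at 46.4, 2.20, 3.81 and 17.8 CPM in WT and 68.3, 8.88, 7.69 and 67.5 CPM in URE GMPs. Replicates 1 and 4 stood far above 2 and 3 in both genotypes, and the adjusted p of *Atg9a* was 0.638 without and 0.0116 with the block (log2 fold change 1.11 and 1.35). Without the block, leaving out a library moved it from 0.67 (without URE replicate 1) to 2.27 (without WT replicate 1). Exons of *Wdr45* share 818 bases with *Gm45208* and those of *Atg9a* 1832 with *Gm29253*, on the same strand, so counts of these pairs could be split between them. In total 5 genes were higher in URE GMPs without overlap of libraries (*Wdr45*, *Atg12*, *Sqstm1*, *Optn* and *Tax1bp1*) and none lower, against 7.85% and 6.98% of all genes tested.

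Early steps showed no call in GMPs in either fit. The starting complex lay between -0.23 (*Ulk1*) and 0.39 (*Atg13*). Among the nucleation genes *Atg14*, which directs VPS34 to autophagy, was at 0.65 (adjusted p = 0.331), while *Uvrag* and *Dapk1* had negative values of -0.43 and -0.64 (adjusted p = 0.349 and 0.580). *Becn1*, the name-giving subunit, was at -0.10 with a 95% interval of -0.42 to 0.23. The mitophagy genes lay between -0.18 (*Bnip3*) and 0.44 (*Pink1*).

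The URE GMPs also differed from WT GMPs in markers of mature and other cells. Of the 10 late neutrophil markers, 9 were tested, 3 called higher and 1 lower. The 10 summed to 70.4 to 174 CPM in WT GMPs and to 255 to 1032 in URE GMPs. By URE replicate the sums were 255, 880, 1032 and 511 CPM, beside 32.9, 22.0, 79.6 and 27.8 CPM for *Optn*. Replicate 3 was highest in both, while replicate 2 had the next highest sum and the lowest *Optn*. Monocyte and dendritic markers (8 genes, 7 tested, 6 called lower) summed to 943 to 1192 CPM in WT and 61.9 to 267 in URE GMPs, and GMP markers to 55885 to 71387 and 73968 to 160797. Of the 9 GMP markers 1 was called higher and 1 lower (6 and 2 with the block), and most of the sum was *Mpo* (means of 50523 and 91802 CPM in WT and URE GMPs). The sums of mast cell and basophil markers overlapped (1080 to 1662 CPM in WT, 1137 to 2587 in URE), with 1 of 6 genes called higher, 2 lower and a median log2 fold change of -0.82. Sums also overlapped for erythroid markers (379 to 956 and 232 to 1573) and megakaryocyte markers (102 to 220 and 77.4 to 246). Lymphoid markers (9 genes, 4 tested, 3 called lower) did not overlap, at 90.1 to 134 CPM in WT and 23.1 to 40.2 in URE GMPs. Their part in the receptor and *Atg12* values was not tested, and in bulk RNA fewer cells of a type and less RNA per cell cannot be told apart. In LSKs, erythroid markers summed to 1173 to 1859 CPM in WT and 2210 to 2642 in URE mice, where none of 11 genes tested was called higher and 1 lower (1 and 2 with the block), and lymphoid markers to 345 to 704 and 98.8 to 249. Most of the erythroid sum was *Car2* (means of 1382 and 2303 CPM in WT and URE LSKs). Late neutrophil markers summed to 38.5 to 183.5 and 179 to 364 CPM in these groups and monocyte and dendritic markers to 240 to 439 and 48.5 to 112. The late neutrophil sums overlapped, and those of mast cell and basophil markers did not (29.5 to 48.9 and 91.3 to 160.1 CPM), with *Cpa3* and *Mcpt8* called higher, 3 of the 5 genes tested at negative values and a median log2 fold change of -0.80. Megakaryocyte markers overlapped (66.7 to 87.4 and 58.9 to 747), and none of the 45 genes was called in LSKs.

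The ATG8 genes were followed in every group, since their products coat the membrane that all receptors dock on. Per kilobase, *Gabarapl1* (71.4 ± 10.2), *Map1lc3b* (65.1 ± 9.81) and *Gabarap* (57.4 ± 10.9) stood close together in WT LSKs, within an SD of their neighbour in this order, above *Gabarapl2* (35.2 ± 5.20) and far above *Map1lc3a* (1.25 ± 0.240). In URE LSKs the order was *Map1lc3b* (78.0 ± 10.4), *Gabarapl1* (58.9 ± 11.9), *Gabarapl2* (41.9 ± 7.18), *Gabarap* (41.8 ± 8.25) and *Map1lc3a* (0.700 ± 0.377). *Gabarapl2* and *Gabarap* could not be told apart there by their spread. In WT GMPs *Gabarap* led at 59.9 ± 13.8, followed by *Map1lc3b* (51.5 ± 7.83), *Gabarapl1* (40.3 ± 4.14), *Gabarapl2* (24.1 ± 2.36) and *Map1lc3a* (0.802 ± 0.364), and the same order held in URE GMPs with *Gabarap* at 78.5 ± 16.6 and *Map1lc3b* at 60.9 ± 9.59. In WT GMPs the means of *Gabarap* and *Map1lc3b* differed by less than the SD of *Gabarap*. These orders are descriptions, and no test was made between genes. They rest on the merged exonic length, 7517 bases for *Map1lc3b* and 1844 for *Gabarap*. Before division by length, their means in WT GMPs were 387 ± 58.9 and 110 ± 25.4 CPM.

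By mouse, *Map1lc3b*, the most used LC3 gene, was at 442, 495, 591 and 429 CPM in WT LSKs, 541, 697, 584 and 524 in URE LSKs, 310.3, 394, 390.0 and 454 in WT GMPs and 454, 434, 557 and 387 in URE GMPs. Genotypes overlapped in both cell types. *Gabarapl1* was at 131, 169, 123 and 152 CPM in WT LSKs, 99.1, 143, 135 and 96.7 in URE LSKs, 73.2, 92.8, 78.1 and 80.3 in WT GMPs and 67.9, 81.4, 105 and 75.9 in URE GMPs, where every WT GMP library lay below every WT LSK library. *Gabarapl2* was at 73.9, 99.3, 80.4 and 73.5 CPM in WT LSKs, 99.7, 119.9, 81.7 and 88.6 in URE LSKs, 51.6, 62.5, 58.8 and 51.4 in WT GMPs and 59.4, 71.2, 72.0 and 76.6 in URE GMPs, and in both genotypes the GMPs lay below the LSKs. A processed pseudogene 99.4% identical to it over 349 bases, *Gm3724*, had 499 counts in all libraries together. *Map1lc3a* was the lowest of the family, at 1.31, 1.51, 1.21 and 1.85 CPM in WT LSKs, 0.468, 0.994, 0.463 and 1.38 in URE LSKs, 0.390, 0.872, 1.12 and 1.40 in WT GMPs and 0.675, 0.783, 1.54 and 1.13 in URE GMPs, with all groups overlapping. In the URE against WT comparison in GMPs all 5 ATG8 genes had positive values, from 0.020 (*Gabarapl1*) to 0.38 (*Gabarap*), and none was called, with adjusted p from 0.329 to 0.972.

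**Figure D4:**
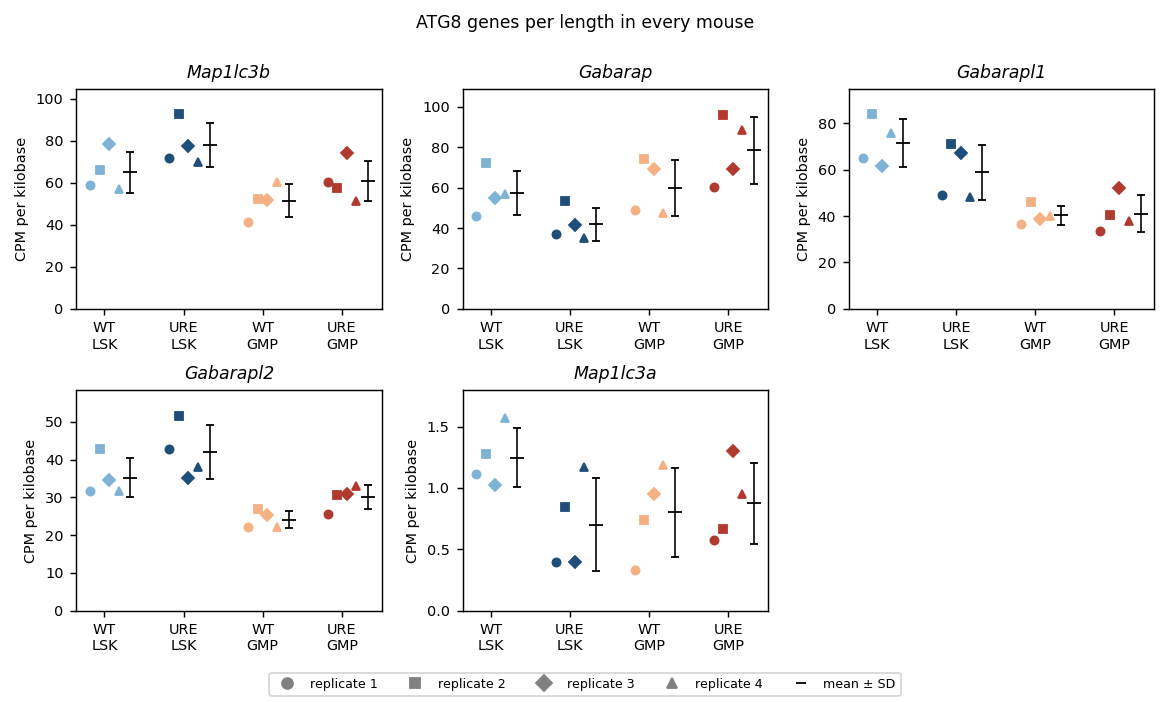
Level of the 5 ATG8 genes in CPM per kilobase of exonic length (y axis) in every mouse of the 4 groups (x axis), with symbols for the replicate number and black bars for the mean ± SD. On average *Gabarapl1* and *Gabarapl2* are lower in GMPs than in LSKs, and *Gabarap* is highest in URE GMPs.

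The step from LSK to GMP was compared within each genotype, which shows how the parts list differs between an early and a committed progenitor. In WT mice 1 of the 45 genes was called higher in GMPs and 3 lower, against 11.5% and 15.8% of the 14767 genes tested. The higher one was *Becn1*, at 139, 162, 166 and 162 CPM in LSKs and 205, 265, 245 and 270.5 CPM in GMPs, without overlap (log2 fold change 0.64 ± 0.14, adjusted p = 0.00957, edgeR). Its exons share 3104 of 7065 bases with *Cntd1* on the other strand, which unstranded libraries cannot separate. Without WT LSK replicate 1 the fold change fell under 1.5 (log2 0.58, adjusted p = 0.0315).

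The 3 lower genes were *Gabarapl1*, *Sqstm1* and *Calcoco1*. *Gabarapl1* was lower in every GMP library than in any LSK library (log2 fold change -0.84 ± 0.16, adjusted p = 0.00403, edgeR), and the call was kept whichever library was left out. Exons of *Gabarapl1* share 570 of 2013 bases with *1700101I11Rik* on the other strand. *Sqstm1* went from 188, 291, 190.3 and 218 CPM in LSKs to 137, 181, 107 and 115 CPM in GMPs, without overlap (log2 fold change -0.73 ± 0.22, adjusted p = 0.0324, edgeR). *Calcoco1* went from 137, 107, 59.6 and 119.8 CPM to 62.7, 37.1, 19.1 and 52.1 CPM, where LSK replicate 3 lay just under the highest GMP library (log2 fold change -1.32 ± 0.38, adjusted p = 0.0283, edgeR). The *Sqstm1* call was lost without GMP replicate 1, 3 or 4 or LSK replicate 2 or 4 (adjusted p = 0.0647 to 0.0934) and with DESeq2 (0.0606), RLE size factors (0.0533) or no filter on low counts (0.0573), and the *Calcoco1* call without GMP replicate 2 or 4 or LSK replicate 1, 2 or 4 (adjusted p = 0.0512 to 0.0791). *Tax1bp1* went the other way, from 720.3, 572, 590.2 and 637 CPM to 1006, 831, 899.6 and 989 CPM without overlap, and passed on adjusted p (0.0161) with a 1.47-fold difference, just under the 1.5 needed. So did *Atg101* (0.55, adjusted p = 0.0353) and *Vmp1*, an endoplasmic reticulum protein needed for membrane growth (0.49, adjusted p = 0.0488), both higher in GMPs, and *Gabarapl2* (-0.56, adjusted p = 0.0309), which was lower.

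The replicate block raised these counts to 2 higher and 13 lower, against 15.8% and 25.1% of all genes. Added to the higher side was *Wipi1* (0.75 on the log2 scale, adjusted p = 0.00236 with the block), which was at 12.2, 7.82, 8.47 and 13.7 CPM in WT LSKs. Added to the lower side were *Ulk1* (-0.69) and *Ulk2* (-0.64) of the starting complex, *Atg14* (-0.99) and *Ambra1* (-0.77) of nucleation, *Atg9a* (-1.09), *Atg2a* (-0.69) and *Wipi2* (-0.61) of membrane supply, *Atg16l2* (-0.76), *Nbr1* (-0.71) and *Pink1* (-0.73), with adjusted p from 0.000482 to 0.0495. *Ulk1* was at 12.9, 11.7, 16.5 and 13.98 CPM in WT LSKs and 11.997, 8.35, 5.28 and 9.75 in WT GMPs, and its relative *Ulk2* at 11.5, 17.2, 25.5 and 12.9 and 8.49, 11.7, 12.3 and 9.49. *Atg14* was at 50.5, 31.2, 19.1 and 49.5 CPM in WT LSKs and 29.02, 16.1, 11.9 and 17.7 in WT GMPs. *Wipi2*, which recruits the conjugation enzyme to PI3P, was at 26.4, 21.4, 31.9 and 56.3 CPM in WT LSKs and 21.4, 15.3, 26.6 and 21.9 in WT GMPs. These ranges overlapped between the cell types. *Atg16l2*, a relative of *Atg16l1*, was at 29.6, 20.6, 23.5 and 21.9 CPM in WT LSKs and 21.9, 11.3, 9.87 and 16.03 in WT GMPs, *Nbr1* in WT LSKs at 108, 102, 61.4 and 102, and *Pink1*, the kinase that marks damaged mitochondria, at 15.1, 23.7, 28.9 and 17.9 in WT LSKs and 9.31, 14.8, 17.6 and 10.3 in WT GMPs. They overlapped as well. Each of these 10 genes was lower in the GMP library than in the LSK library of the same number in all 4 WT pairs. They were picked by the fit with the block, which draws on such pairs, so this adds no support to the calls. Without the block *Ambra1* was at -0.49 (adjusted p = 0.760) and *Atg2a* at -0.30 (adjusted p = 0.830). Both turned positive without LSK replicate 1 (0.31 and 0.41), and *Atg2a* also without GMP replicate 2 (0.055) or 3 (0.054). The *Atg9a* value lay between -1.86 (without GMP replicate 1) and -0.049 (without LSK replicate 1). The median log2 fold change of the 45 was -0.26, beside -0.086 for all genes tested. Over all steps 30 of the 45 values were negative. Libraries of the cell types did not overlap for 3 genes that were higher in GMPs (*Atg101*, *Becn1* and *Tax1bp1*) and 5 lower (*Wdr45*, *Gabarapl1*, *Gabarapl2*, *Sqstm1* and *Fundc1*, a mitophagy receptor), against 13.7% and 17.6% of all genes.

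In URE mice 6 of the 45 genes were called higher in GMPs and 3 lower, against 9.2% and 12.6% of the 14395 genes tested. *Atg12* went from 64.5, 93.8, 82.9 and 56.2 CPM in LSKs to 213, 246, 153 and 267 CPM in GMPs (log2 fold change 1.52 ± 0.22, adjusted p = 0.00154, edgeR) and *Gabarap* from 68.1, 98.7, 76.5 and 64.9 CPM to 111, 177, 127 and 163 CPM (log2 fold change 0.87 ± 0.20, adjusted p = 0.0126, edgeR). Both were without overlap. *Optn* (log2 fold change 1.66 ± 0.41, adjusted p = 0.0172), *Tax1bp1* (log2 fold change 0.67 ± 0.17, adjusted p = 0.0188) and *Atg101* (log2 fold change 0.77 ± 0.18, adjusted p = 0.0129) did not overlap between LSKs and GMPs either. *Atg101* was at 75.5, 94.7, 59.5 and 71.9 CPM in URE LSKs and 140.0, 149, 127 and 111 in URE GMPs, and *Tax1bp1* in URE LSKs at 908, 749.9, 838 and 752. *Wipi1* went from 10.6, 8.19, 9.35 and 19.6 CPM to 30.7, 26.8, 19.4 and 32.5 CPM where LSK replicate 4 lay just above GMP replicate 3 (log2 fold change 1.15 ± 0.32, adjusted p = 0.0296, edgeR). The *Wipi1* call was lost without URE GMP replicate 1, 2 or 4 or URE LSK replicate 1 or 3 (adjusted p = 0.0586 to 0.0816), and *Tax1bp1* fell under the 1.5-fold limit without URE GMP replicate 1 (log2 0.57, adjusted p = 0.0485).

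The 3 lower genes in URE mice were *Ulk1*, *Dapk1* and *Calcoco1*. *Ulk1* went from 19.0, 9.71, 25.6 and 14.7 CPM in LSKs to 9.36, 4.86, 9.94 and 5.86 CPM in GMPs, where LSK replicate 2 lay just under the highest GMP library (log2 fold change -1.24 ± 0.37, adjusted p = 0.0409, edgeR). *Dapk1*, a kinase that frees Beclin 1 from its inhibitor, went from 23.5, 5.93, 35.0 and 19.8 CPM to 10.1, 2.77, 5.59 and 5.97 CPM, also with overlap (log2 fold change -1.83 ± 0.55, adjusted p = 0.0407, edgeR). *Calcoco1* went from 137, 96.8, 107 and 113 CPM to 88.2, 52.4, 64.3 and 77.9 CPM without overlap (log2 fold change -0.72 ± 0.21, adjusted p = 0.0318, edgeR). Each of the 3 calls was lost without any one of 6 of the 8 libraries. For *Ulk1* these were URE GMP replicates 1, 2 and 4 (adjusted p = 0.0609, 0.105 and 0.115) and URE LSK replicates 1, 3 and 4 (0.0927, 0.103 and 0.0689), and for *Dapk1* and *Calcoco1* URE GMP replicates 2, 3 and 4 and URE LSK replicates 1, 3 and 4 (adjusted p = 0.0760 to 0.104 and 0.0610 to 0.100). With the block *Ulk2* (-0.70, adjusted p = 0.0408) and *Uvrag* (-0.77, adjusted p = 0.0377) were called lower as well, at 18.3, 17.8, 19.7 and 16.3 CPM in LSKs and 12.9, 11.96, 16.4 and 6.47 in GMPs for *Ulk2* and 17.1, 14.8, 13.5 and 19.0 and 8.01, 12.8, 10.4 and 8.16 for *Uvrag*, which made 5, against 18.6% of all genes. Exons of *Uvrag* share 1589 of 9035 bases with *Gm45187* on the other strand. A stretch of 345 bases is 95.1% identical to *Mettl6*, which had 38256 counts in all libraries against 5412 for *Uvrag*. The median log2 fold change of the 45 was -0.092, beside -0.093 for all genes tested. Without overlap, 5 genes were higher in GMPs and 4 lower (*Uvrag*, *Atg4c*, *Gabarapl2* and *Calcoco1*), against 12.3% and 14.3% of all genes.

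*Sqstm1* was called lower in GMPs than in LSKs of WT mice and had a value of 0.23 (adjusted p = 0.497) in URE mice. Whether the genotype difference itself depends on the cell type was tested with an interaction term over all 16 libraries, where a positive value means a larger URE against WT difference in GMPs than in LSKs. None of the 45 genes was called by edgeR, against 0.866% of the 15935 genes called higher and 0.351% lower, and 5 had an unadjusted p under 0.05, beside 1853 of the 15935, a share near that over all genes. These were *Atg12* (log2 fold change 1.16 ± 0.30, adjusted p = 0.0745), *Sqstm1* (log2 fold change 0.99 ± 0.32, adjusted p = 0.181), *Gabarap* (log2 fold change 0.85 ± 0.30, adjusted p = 0.219), *Vmp1* (log2 fold change -0.50 ± 0.19, adjusted p = 0.270) and *Optn* (log2 fold change 1.14 ± 0.53, adjusted p = 0.423). DESeq2 called *Atg12* (adjusted p = 0.0304), and edgeR did so without URE GMP replicate 3 (adjusted p = 0.0348). With the replicate block 4 genes were called higher and none lower, against 3.97% and 2.6% of all genes. They were *Atg12* (log2 fold change 1.19 ± 0.25, adjusted p = 0.0144 with the block), *Gabarap* (log2 fold change 0.85 ± 0.18, adjusted p = 0.0128 with the block), *Sqstm1* (log2 fold change 1.02 ± 0.23, adjusted p = 0.0213 with the block) and *Atg14* (log2 fold change 0.92 ± 0.24, adjusted p = 0.0378 with the block). *Atg14* was at 35.3, 27.4, 23.2 and 32.1 CPM in URE LSKs and 33.1, 25.5, 17.7 and 41.4 in URE GMPs, and *Atg12* in WT LSKs at 66.1, 86.6, 84.4 and 79.1. *Gabarap* in WT GMPs was at 90.2, 137, 127 and 87.1 CPM and *Sqstm1* in URE LSKs at 189, 287, 259 and 142. The *Sqstm1* libraries of both genotypes overlapped in LSKs. The comparisons above share groups with this one and are not independent of it.

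Some genes differed more between replicate numbers than between genotypes or cell types. *Ambra1*, which positions the Beclin 1 complex, was at 87.4, 11.5, 10.3 and 45.3 CPM in WT LSKs, 77.6, 5.83, 8.13 and 57.5 in URE LSKs, 77.2, 5.94, 5.13 and 22.9 in WT GMPs and 55.1, 9.40, 7.64 and 62.1 in URE GMPs. Replicates 1 and 4 were high and 2 and 3 low in all 4 groups. *Atg9a* in LSKs was at 61.1, 7.38, 9.92 and 37.0 CPM in WT and 75.7, 2.75, 12.3 and 66.0 CPM in URE mice. *Atg2a*, which moves lipid from the endoplasmic reticulum, was at 57.3, 15.1, 10.8 and 22.5 CPM in WT LSKs, 48.7, 8.32, 11.8 and 53.9 in URE LSKs, 56.3, 5.07, 4.89 and 19.97 in WT GMPs and 50.3, 12.5, 7.23 and 57.4 in URE GMPs. From means of log2 CPM (prior count of 2) over the 16 libraries, replicates 1 and 4 exceeded 2 and 3 by 8.49-fold for *Atg9a*, 7.29-fold for *Ambra1*, 4.81-fold for *Atg2a* and 2.23-fold for *Pik3r4*, the VPS15 subunit. *Dapk1* differed by 2.15-fold, without overlap in 3 of the groups. A difference of at least 1 on the log2 scale was found for 5 of the 45 genes (11.1%) and 13.8% of all genes.

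In all, 11 of the 45 genes were higher in replicates 1 and 4 without overlap within any of the 4 groups and 4 lower, against 12.3% and 6.16% of 15935 genes. The other 7 higher ones were *Atg13*, *Atg14*, *Wipi1*, *Wdr45b*, *Atg4b*, *Atg4d* and *Calcoco1*, and the 4 lower ones *Atg2b*, *Wdr45*, *Atg5* and *Pink1*. The labels name no batch, so what the replicate numbers share was not tested. Within replicates 2 and 3 alone none of the 45 genes was called between genotypes in GMPs, with *Sqstm1* at 0.89 (adjusted p = 0.265), *Optn* at 2.50 (0.174) and *Atg12* at 0.65 (0.385). Within replicates 1 and 4 alone these were 1.03 (adjusted p = 0.0332), 1.26 (0.0225) and 1.47 (0.00717). Over all genes, 108 of 14222 were called either way in replicates 2 and 3 alone, and 1236 of 14015 in replicates 1 and 4 alone. Nothing particular to the 45 is read from these 2 fits.

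**Figure D5:**
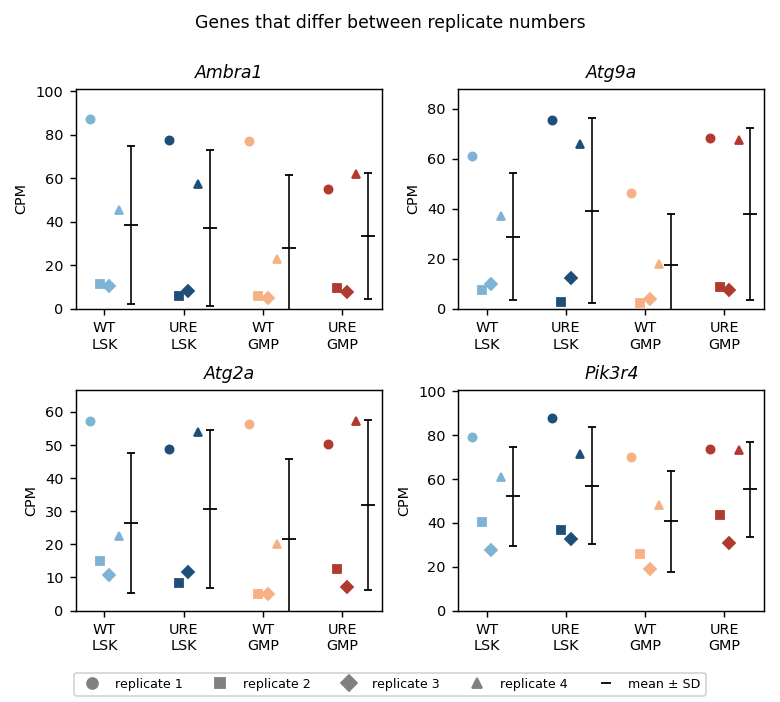
CPM of *Ambra1*, *Atg9a*, *Atg2a* and *Pik3r4* (y axis) in every mouse of the 4 groups (x axis), with symbols for the replicate number and black bars for the mean ± SD, cut off at 0. Circles and triangles (replicates 1 and 4) lie above squares and diamonds (replicates 2 and 3) in every group.

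Neighbouring genes of the pathway, in 5 lists, were counted in the same fits. Between genotypes their counts stand beside 2.38% of all genes called higher and 3.76% lower in LSKs (3.83% and 5.62% with the block) and 4.67% and 3.63% in GMPs (9.52% and 6.82% with the block), and nothing particular to the lists is read from them. In LSKs 1 of 12 further nucleation and membrane factors was called lower in URE mice, *Rubcnl*, which aids autophagosome maturation (log2 fold change -1.94 ± 0.32, adjusted p = 0.00676), and none of 15 genes of autophagosome-lysosome fusion and none of 16 further receptors was called. With the block the fusion genes *Vps18*, of the tethering complexes, and *Vamp8*, a SNARE, were called lower (-1.14 and -0.70, adjusted p = 0.00413 and 0.0140). Of 25 genes of mTORC1, TSC and Rag, the nutrient sensor that restrains ULK1, *Rptor* was called higher (log2 fold change 1.37 ± 0.35, adjusted p = 0.0490) and *Deptor*, an mTOR inhibitor, lower (log2 fold change -1.90 ± 0.29, adjusted p = 0.00439). Of 13 transcriptional regulators of autophagy *Tfec*, a relative of TFEB, was called lower (log2 fold change -5.20 ± 0.38, adjusted p = 0.000113). The block added *Foxo3* as higher (0.73, adjusted p = 0.0117) and, as lower, *Mitf* (-1.89, adjusted p = 0.00723) and, of the mTORC1 list, *Fnip2* (-1.004, adjusted p = 0.0292). In GMPs *Rubcnl* (log2 fold change -3.46 ± 0.39, adjusted p = 0.00111), *Deptor* (log2 fold change -1.82 ± 0.22, adjusted p = 0.00138) and *Tfec* (log2 fold change -3.26 ± 0.84, adjusted p = 0.0445) were called lower too. *Ccpg1*, a receptor for endoplasmic reticulum, was called higher (log2 fold change 1.19 ± 0.19, adjusted p = 0.00478) and *Retreg1*, another, lower (log2 fold change -1.16 ± 0.22, adjusted p = 0.0114), out of 15 receptors tested. *Hif1a*, the hypoxia factor that drives *Bnip3*, was called higher (log2 fold change 1.75 ± 0.28, adjusted p = 0.00523), while *Bnip3* itself was at -0.18 (adjusted p = 0.676). None of the 15 fusion genes was called in GMPs without the block, which called *Lamp1*, a lysosomal membrane protein, lower (-0.98, adjusted p = 0.00633). It also called *Rptor* higher (1.24, adjusted p = 0.00112) and, among the receptors, *Tex264* higher (0.63, adjusted p = 0.0293) and *Wdfy3* lower (-1.01, adjusted p = 0.0420). Genes named for the block alone were chosen after their values were seen.

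From LSK to GMP the counts stand beside 11.5% of all genes called higher and 15.8% lower in WT mice and 9.2% and 12.6% in URE mice. In WT mice 1 of 12 further nucleation and membrane factors was called higher and 4 lower, 1 and none of 15 fusion genes, 1 and 3 of 16 receptors, 3 and 3 of 25 mTORC1 genes, and 1 and 2 of 13 regulators. In URE mice the counts were none and 2, 1 and none, 4 and 2, 3 and 3 (of 24 tested), and 3 and 1. With the block, in the same order, they were 1 and 4, 1 and none, 1 and 5, 6 and 5, and 1 and 5 in WT mice, and 1 and 3, 2 and none, 5 and 3, 3 and 5, and 2 and 1 in URE mice, beside 15.8% and 25.1% of all genes in WT and 13.3% and 18.6% in URE mice. The stress-response genes *Sesn1* (-1.33 in WT and -1.86 in URE mice) and *Sesn3* (-1.65 and -1.91), which restrain mTORC1, fell in both genotypes, and *Lamtor4*, which anchors mTORC1 at the lysosome, rose in both (1.32 and 1.58). *Retreg1* fell in both (-1.69 and -2.39), with adjusted p up to 0.00193 for these 4 genes. In the interaction test *Ccpg1* (log2 fold change 1.18 ± 0.27, adjusted p = 0.0443) and *Hif1a* (log2 fold change 1.78 ± 0.40, adjusted p = 0.0414) were called higher, and no gene of these lists lower. The block added *Sesn2* as higher (2.04, adjusted p = 0.0444) and *Lamp1* as lower (-0.93, adjusted p = 0.0405).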

How the data were processed

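Bulk RNA-seq of sorted LSKs and GMPs of URE and WT mice, 4 mice per group, was analysed. The authors quantified unstranded low-input libraries (up to 10 ng of RNA, no molecular identifiers) with salmon against GRCm38 and summed transcripts to genes with tximport. They deposited estimated counts per gene, whole numbers without normalization. The annotation release is not given in the sources used here. Names and lengths came from GENCODE M21, which held 54094 of 54347 identifiers and all 45 genes described.

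Each comparison was fitted on its own 2 groups with edgeR 4.0.16 (limma 3.58.1, R 4.3.3), using TMM, filterByExpr and the quasi-likelihood F test. The interaction used all 16 libraries and no fold limit. Standard errors were derived from the fold change and F, and 95% intervals from the t quantile at edgeR's degrees of freedom. CPM used TMM effective library sizes over all 16 libraries. Libraries were grouped by their labels. Where the labels do not name separate cultures or litters, p-values measure the spread between these mice. The thresholds are those of the study, which used DESeq2, here an alternative (1.42.0). The genes, lists and tests were chosen with earlier results of these data known. The genes given per mouse are those called in the fit without or with the block, and the ATG8 genes, and at most 4 genes per neighbouring list and comparison are named, those called with the block alone included.

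Replicate numbers are given in the labels for each group. Deviations from the group means correlated between same-numbered libraries in all pairs (r = 0.24 to 0.71, against -0.59 to 0.40 between different numbers), so the numbers were taken to pair them. Replicate 4 was less clear, as 1 of its libraries in LSKs (0.40) and both in GMPs (0.39 and 0.26) correlated more with replicate 1 than with their own number (0.28 and 0.24). Other alternatives were RLE size factors, no filter, a joint fit, no fold limit, replicates 1 and 4 or 2 and 3 alone, and leaving out each library. On simulated counts with 200 genes changed 4-fold, the LSK comparison recovered 49%, the GMP comparison 69% and the interaction 35.5%. From LSK to GMP 62.5% were recovered in WT and 61.5% in URE mice. False calls numbered 4 to 9 per fit. Smaller changes and differences shared by a replicate number were not simulated, so recovery of smaller changes is not known. Copies over 95% identical along 200 bases were searched with BLAST 2.17.0. Plots were drawn with matplotlib 3.10.9.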

Additional observations from a re-analysis of the deposited data

Results flagged for a closer look

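Each of the 45 genes and the total count was tested for a library far from the other 3 of its group, 184 groups in all. In 10 groups the gap to the nearest other library exceeded Dixon's limit for 4 samples at the 95% level, where chance gives about 9. *Atg4a* was at 50.3 CPM in URE LSK replicate 2 and at 29.6 to 31.4 in the others, and *Atg3* at 8.83 CPM in URE GMP replicate 1 against 17.9 to 19.6. *Nbr1* was at 61.4 CPM in WT LSK replicate 3 against 102 to 108, and *Becn1* at 139 CPM in WT LSK replicate 1 against 162 to 166. *Tax1bp1* was at 1628 CPM in URE GMP replicate 1 against 1196 to 1264, and *Bnip3l* at 228 CPM in WT GMP replicate 4 against 170.1 to 175. *Atg4b* was at 70.7 CPM in URE GMP replicate 3 against 100.4 to 106, *Atg16l1* at 30.5 CPM in WT GMP replicate 3 against 22.9 to 23.3, *Uvrag* at 10.7 CPM in WT GMP replicate 2 against 13.6 to 14.1, and *Fundc1* at 129 CPM in URE LSK replicate 2 against 94.9 to 100.3.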

How the results depend on the processing

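Of the 45 genes, none was called between genotypes in LSKs, in either direction, under the replicate block, DESeq2, RLE size factors, no filter, the joint fit, no fold limit, either pair of replicates alone or any library left out. Under these settings 386 (replicates 2 and 3 alone) to 1637 (DESeq2) of all genes were called. In GMPs the number called higher was 3, became 8 with the replicate block and 0 in replicates 2 and 3 alone, and lay between 1 and 3 with a library left out (1 without WT GMP replicate 4). Calls over all genes, either way, were 1148, and 2260 with the block. They were 108 of 14222 in replicates 2 and 3 alone and 715 to 1176 with a library left out. From LSK to GMP in WT mice the number higher was 1, and became 2 with the replicate block, 4 with DESeq2, 3 with RLE size factors, 4 without the fold limit and 1 to 4 with a library left out. The number lower was 3, and became 13 with the replicate block, 0 in replicates 2 and 3 alone and 1 to 5 with a library left out. Over all genes 4037 were called either way, 6041 with the block, 5240 with DESeq2, 4110 with RLE size factors and 4258 without the fold limit. It was 2507 of 15290 in replicates 2 and 3 alone and 3216 to 4257 with a library left out. In URE mice replicates 2 and 3 alone gave 0 higher and 0 lower, the replicate block gave 5 lower, and leaving out a library gave 4 to 7 higher and 0 to 3 lower. Beside these, all genes called either way were 810 of 14715 in replicates 2 and 3 alone, against 3133 in the main fit. They were 4591 with the block and 2193 to 3369 with a library left out. For the interaction the number higher was 0, and became 4 with the replicate block, 1 with DESeq2 and 0 to 1 with a library left out. The interaction called 194 of all genes, 1047 with the block, 672 with DESeq2 and 84 to 283 with a library left out. Without a library, *Ambra1* in WT mice ranged from -1.77 to 0.31, *Atg2a* from -1.40 to 0.41 and *Atg9a* from -1.86 to -0.049. Under the replicate block no other count over the 45 genes moved by over 1.5 times, while counts in the neighbouring lists did, as with mTORC1 genes higher from LSK to GMP in WT mice (3 to 6). Intervals cover the spread of 4 mice, counting error and depth limit *Map1lc3a* most, and the causes of these changes were not tested. With a single pair of replicates a group, fewer libraries set the spread.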
